A study of Rattus norvegicus with 15 samples.

Results

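Dorsal CA1 of the rat hippocampus was described here in the animals that were never trained: the naive group of a fear conditioning study, injected with a scrambled control siRNA. Its members were the 5 libraries labelled naive with scrambled siRNA in the table of raw gene counts, out of 15 libraries in the series; the other libraries came from trained animals that received scrambled siRNA or siRNA against Rnf20, and none of them entered a value below except for an alternative scaling. All animals of the group were wild-type male Sprague-Dawley rats aged 8 to 9 weeks. Accell siRNA, a modified form that cells take up with no transfection reagent, was delivered to dorsal CA1 by stereotaxic surgery. Every group shares that surgery and no uninjected group is among the samples, so the values describe injected tissue. The study's design sets training 5 days after injection, and the interval in naive animals, as well as their handling, is not in the labels. RNA was purified on columns from frozen tissue that was not sorted by cell type, and polyadenylated RNA was made into strand-marked libraries with 14 cycles of PCR. The libraries are numbered 1, 2, 9, 11 and 12 in the labels. Separate animals are not stated, so a spread below is that between these samples, which may be technical. Lists of 5 values follow that order of libraries, and a mean ± is the SD over n = 5.

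CA1 is the field of the hippocampus from which most of its output leaves. Its principal cells are excitatory pyramidal neurons that receive glutamatergic input from CA3 through the Schaffer collaterals and from the entorhinal cortex, and its synapses are a standard model of long-term potentiation. The strength of those synapses depends on AMPA receptors, which carry fast excitatory current, on NMDA receptors, which admit calcium when input and depolarisation coincide, and on CaMKII, the kinase that this calcium activates. A dissected block holds, besides pyramidal cells, inhibitory interneurons, the myelin of the alveus, astrocytes, microglia and vessels, and it borders the dentate gyrus, CA3, the lateral ventricle with its choroid plexus, and the thalamus.

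Total gene counts were 15543596, 17046535, 16662090, 15801954 and 14249375. CPM, the counts of a gene scaled to a common library size, was taken on library totals adjusted by TMM, whose factors ran from 0.983 to 1.01. No count fell on 1964 of the 22314 genes in the table, 16295 had at least 1 count in each library, and 13393 reached 1 CPM in each. A count of 0 allows up to 3 counts, or 0.176 to 0.211 CPM depending on the library. CPM is not divided by transcript length, so an order of genes below is an order of reads, and long transcripts draw more of them. A mean ± SD printed below with no unit is in CPM.

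The reads were concentrated in few genes. By mean CPM, 7 genes held 10% of the counts, 81 held 25% and 732 held 50%, while 99% took 11135 genes. Within single libraries, 50% of the counts lay on 709, 750, 708, 719 and 743 genes. With the 13 mitochondrially encoded protein genes left out, 1015 genes were needed for 50%. The AY172581 gene models described below were not among those left out. The median of the 14038 genes with a mean of at least 1 CPM was 23.3 CPM. At least 100 CPM was reached by 1990 of them, 14.2%, and at least 1000 CPM by 83.

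**Figure D1:**
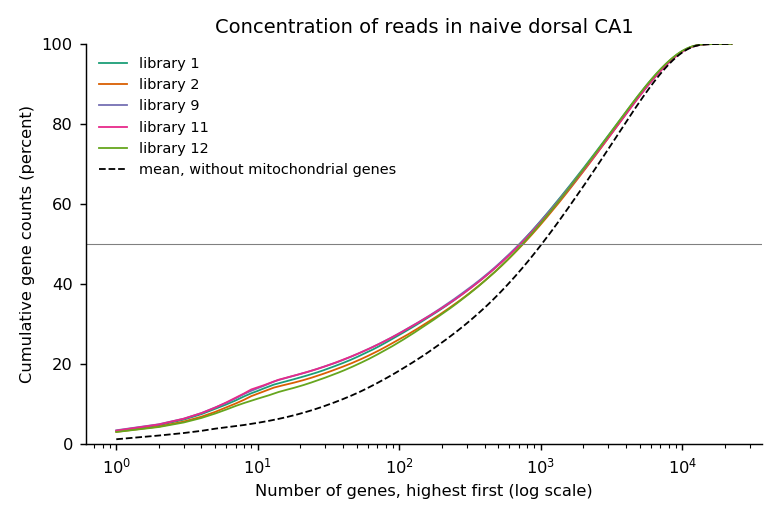
Cumulative percent of the gene counts (vertical axis) against the number of genes, ordered by CPM within each library (horizontal axis, log scale). Each of the 5 naive libraries has a line, and a dashed line shows their mean without the 13 mitochondrially encoded protein genes. The lines of the 5 libraries nearly coincide and cross 50% between 708 and 750 genes.

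The 13 protein genes of the mitochondrial genome, which encode subunits of the respiratory chain and of ATP synthase, held 11.6 ± 0.856% of the counts. The share was 12.0%, 11.0%, 12.4%, 12.1% and 10.4%, with the highest in library 9 and the lowest in library 12. Wilson 95% intervals for counting error alone, which treat PCR copies as independent molecules, were at most 0.0323 percentage points wide. Mt-co1, the core subunit of cytochrome c oxidase, led all genes in every library with 33218, 30168, 34312, 33373 and 30779.9 CPM, a coefficient of variation (CV, the SD as a percent of the mean) of 5.54%. Mt-co3 (14125 ± 1191), Mt-cyb (13062 ± 1287), Mt-atp6 (12985 ± 1088) and Mt-co2 (12834 ± 1160.0) came next by reads. Complex I subunits spanned a wide range, from 10884 ± 907 for Mt-nd2 and 9816 ± 659 for Mt-nd1 over 5561 ± 395 for Mt-nd5, 1465 ± 125 for Mt-nd6 and 855 ± 83.9 for Mt-nd3 down to 238 ± 54.9 for Mt-nd4. The genes Mt-atp8 and Mt-nd4l overlap Mt-atp6 and Mt-nd4, and reads of either partner may be split by the counting. Mt-nd4 stood below Mt-nd4l (603 ± 155), so its level is uncertain. Mt-atp8 and Mt-nd4l were less even. Mt-atp8 gave 1170.1, 1143, 910.1, 543 and 517 CPM, with libraries 1 and 2 highest and libraries 11 and 12 lowest. Mt-nd4l gave 808, 711, 576, 459 and 459 CPM, with the same libraries at either end. A further 11 gene models that the table lists under the identifier AY172581 and without a symbol held 1.04 ± 0.127% of the counts, led by AY172581.24 (5553 ± 794) and AY172581.9 (4744 ± 443).

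Among genes of the nucleus with a symbol, myelin came first. Mbp, myelin basic protein, stood at 10032, 11114, 11411, 13933 and 7227 CPM, so that library 11 held 1.93 times the level of library 12. Other genes among the 20 highest were of several cell types. Genes of lipid metabolism were Scd2, a fatty acid desaturase (4834 ± 435 CPM), and Apoe, the lipid carrier that astrocytes secrete (2509 ± 179 CPM). Astrocytes contributed Gfap, their intermediate filament (3194 ± 556 CPM), S100b, a calcium-binding protein (1899 ± 187 CPM), and Sparcl1, a secreted protein (2084 ± 614 CPM). Cst3, a secreted protease inhibitor, averaged 2027 ± 121 CPM and Psap, a lysosomal precursor, 1933 ± 276 CPM. Neurons contributed the dendritic microtubule protein Map2 (2212 ± 141 CPM), the axonal motor Kif5a (2354 ± 502 CPM) and Snap25, a SNARE of synaptic vesicle fusion (1917 ± 332 CPM). Calcium signalling was represented by Calm2, a calmodulin gene (1894 ± 109 CPM), and Camk2a, the kinase subunit (1988 ± 163 CPM). Also among the 20 were Cpe, which processes neuropeptides (2454 ± 134 CPM), Eef1a1, a translation elongation factor (2195 ± 342 CPM), Zwint (2132 ± 173 CPM), Ncdn (1824 ± 322 CPM) and Ttr. Ttr, transthyretin of the choroid plexus, was the 16th highest gene at 2459.6 ± 1349 CPM, with a rank between 14 and 52 over the libraries. The 20 genes together held 6.09 ± 0.396% of the counts. Ttr was the least steady of them, at a CV of 54.8%. Calmodulin genes have similar messages, so reads may be split between them.

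The tissue label was checked against markers. Of 12 CA1 pyramidal markers, 10 were in the table, 9 reached 1 CPM and 5 reached 100 CPM. Wfs1, the wolframin gene that marks dorsal CA1 pyramidal cells, stood at 322, 450.3, 191, 331 and 598 CPM, high in library 12 and low in library 9. Dkk3, a secreted Wnt modulator, was steady at 382, 360.2, 386, 358 and 408 CPM. Mpped1 averaged 252 ± 43.1, Itpka, an inositol trisphosphate kinase of dendritic spines, 112 ± 17.9, and Ccn3 148 ± 64.4, of which library 12 alone reached above 200. Pou3f1 (39.4 ± 11.9), Man1a1 (46.5 ± 13.6) and Gpr161 (28.7 ± 10.3) were lower. Lefty1 lay near the level that 3 counts give, at 0.261, 0.173, 0.119, 0.0627 and 0.0714 CPM. The list's median was 79.1 CPM, and over the libraries 80.3, 89.6, 61.8, 71.8 and 96.3 CPM, beside 23.3 CPM for all genes at 1 CPM or more. Library 12 was highest for 7 of the 9 members and library 9 lowest for 7. Such counts, here and below, are read beside the 14038 genes at 1 CPM or more: libraries 1, 2, 9, 11 and 12 were highest for 17.4%, 15.1%, 16.2%, 22.4% and 28.9% of those genes. They were lowest for 18.1%, 16.1%, 20.05%, 21.1% and 24.7%. In bulk tissue, fewer cells of a type and less RNA per cell cannot be told apart, here and in every list below.

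Markers of the neighbouring fields were read as well. CA3 markers had a median of 49.2 CPM, and 9 of 10 reached 1 CPM. Cpne4 averaged 182 ± 39.9 CPM and Bok 72.7 ± 6.15 CPM. Dentate granule markers had a median of 8.61 CPM. Prox1, the transcription factor of granule cells that interneurons make too, stood at 56.2, 78.3, 42.4, 53.7 and 61.1 CPM. Dsp and Plk5, both granule cell markers, averaged 2.99 ± 1.13 and 8.61 ± 4.19 CPM, and Tdo2, Glp1r and Lct were at or near 0. CA2 markers had a median of 16.1 CPM. Rgs14, which holds down plasticity in CA2, stood at 102, 179, 95.4, 109 and 282 CPM, with library 12 highest. Pcp4, a calmodulin-binding protein that is strong in CA2, stood at 177, 127, 251, 142 and 88.8 CPM, with library 12 lowest and library 9 highest. The vasopressin receptor Avpr1b, a defining CA2 gene, lay at 0.0901 ± 0.0600 CPM. The subiculum list had a median of 25.3 CPM, the neocortical layer list 17.1 CPM and the ventral CA1 list 7.73 CPM. These lists are not exclusive, since Prox1 and Calb2 stand on more than 1, and Bcl11b (103 ± 27.3 CPM) of the neocortical list is made by hippocampal neurons as well.

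**Figure D2:**
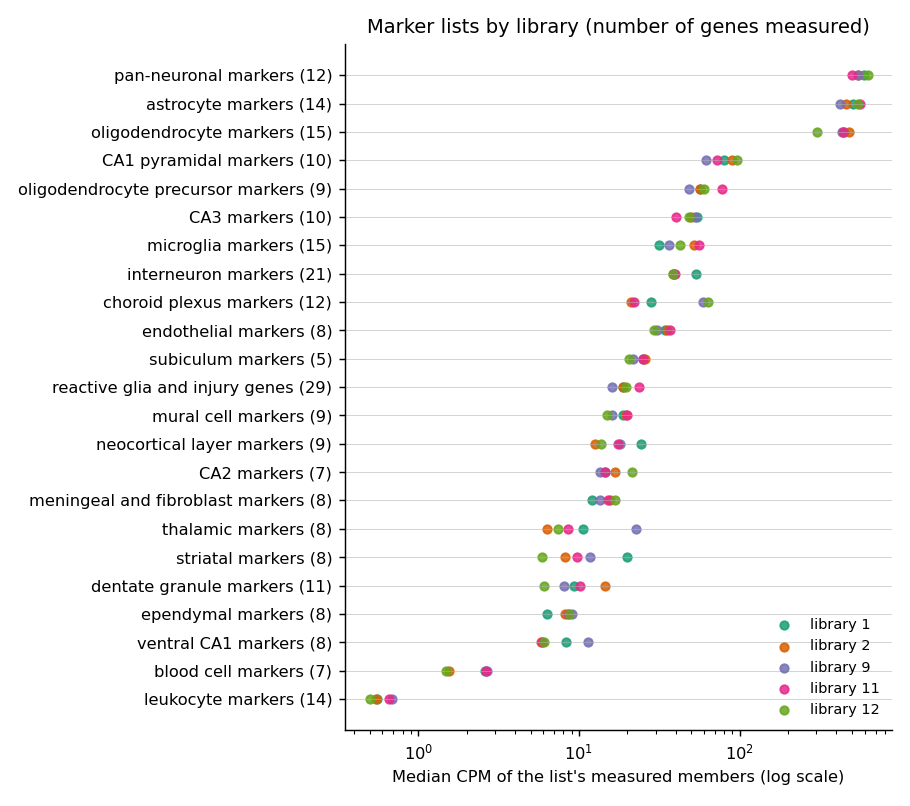
Median CPM of each marker list in each naive library (points, horizontal log axis), with the lists in order of their mean. Neuronal, astrocyte and oligodendrocyte lists lie to the right, and the choroid plexus, striatal and thalamic lists have the points that spread furthest apart.

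Glia took a large share of the reads. The 15 oligodendrocyte markers held 2.53 ± 0.499% of the counts, second among the 64 lists behind the mitochondrial genes, with Mbp, Tf, the iron carrier (1319 ± 144), Mobp (1139.5 ± 229) and Cnp (1041 ± 119.9) among the highest; all 15 reached 1 CPM and the lowest was Gjc3 (28.9 ± 2.69). None of the 15 reached a CV of 30%, which 9.6% of all genes at 1 CPM or more did, but 1.84% of those between 100 and 1000 CPM, so that 0 of 15 is near the background. Library 12 was lowest for 13 of the 15, beside 24.7% of all genes. Oligodendrocyte precursor markers had a median of 58.5 CPM, with Pdgfra, the growth factor receptor of these cells, at 91.7 ± 7.65 and Gpr17, which marks newly formed oligodendrocytes, at 39.9, 41.2, 33.5, 78.1 and 51.8 CPM. Astrocyte markers held 1.14 ± 0.108%, led by Gfap, S100b and Glul, glutamine synthetase (1764 ± 78.9); Aqp4, the water channel of astrocyte endfeet, stood at 1196 ± 187 and the glutamate transporters Slc1a3 and Slc1a2 at 1078 ± 102 and 444 ± 59.3. Microglia markers had a median of 42.5, with the protease Ctss (245 ± 34.7), the survival receptor Csf1r (214 ± 50.02) and the complement gene C1qa (155 ± 63.0) highest. Vessels were read through 8 endothelial markers of 12, median 33.6, with Bsg at 563 ± 53.2 and Slc2a1, the glucose transporter of the blood-brain barrier, at 103 ± 10.6, and through 9 mural cell markers with a median of 17.4. Pan-neuronal markers, 11 of 12 at 1 CPM or more and all 11 at 100 CPM or more, had a median of 561.

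Blood and sex were checked as well. Haemoglobin genes Hba-a1, Hbb and Hba-a2 stood at 96.1 ± 21.4, 67.7 ± 16.2 and 41.2 ± 8.88 CPM, and the counting may split reads between the 2 alpha-globin copies. Leukocyte markers had a median of 0.540 CPM, and 8 of 14 measured were under 1 CPM. Lyz2, also read in microglia, was the highest of them at 78.6 ± 17.2. Of 6 sex-linked genes listed, 4 were measured, and Xist and Uty were not. The Y-linked genes Eif2s3y (62.9, 72.8, 70.1, 69.5 and 71.9 CPM) and Kdm5d (39.4, 34.2, 30.1, 33.3 and 43.5 CPM) were present in all 5 libraries. The Y-linked Ddx3y and Usp9y lay at 0.205 ± 0.155 and 0.0939 ± 0.144, and the reason for these low levels was not tested.

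Interneurons were represented by 21 of 22 markers, all at 1 CPM or more. Cnr1, the cannabinoid receptor of basket cell terminals, stood at 223 ± 51.8 CPM, and Gad2 and Gad1, which make GABA, at 214 ± 47.2 and 161 ± 35.8. Among the subtype markers Cck stood at 134 ± 23.5, Sst at 57.1 ± 10.6, Pvalb at 47.4 ± 9.23 and Vip at 13.4 ± 1.47; Sst, Pvalb and Vip were chosen after their values were seen. Dlx6 was the lowest of the list at 1.11 ± 0.480.

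Glutamate receptors come first among the families of the synapse. Of the AMPA receptor pore subunits, Gria2, which makes the channel impermeable to calcium, stood at 563, 652, 452, 430.2 and 702 CPM and Gria1, the subunit recruited to synapses in potentiation, at 284, 349, 245, 257 and 468. Both were highest in library 12; Gria2 was lowest in library 11 and Gria1 in library 9. Gria3 averaged 216 ± 26.8 and Gria4 79.4 ± 8.26. The auxiliary subunits, which set trafficking and gating, were led by Cnih2 (401 ± 66.6), Shisa7 (159.9 ± 30.8) and Cacng7 (137 ± 13.6); Cacng8, the gamma-8 subunit that is characteristic of the hippocampus, stood at 70.1, 88.3, 59.3, 62.1 and 116 CPM and Cnih3 was lowest at 6.36 ± 1.64. The obligatory NMDA subunit Grin1 stood at 309.5 ± 45.0, the mature subunit Grin2a at 121, 132, 112, 115 and 241 CPM, and Grin2b, which predominates early in life, at 45.8 ± 12.0. Library 12 held the highest Grin2a, and the other 4 libraries lay close together. Grin2c (123 ± 14.0), Grin2d (8.92 ± 0.672), Grin3a (5.99 ± 0.540) and Grin3b (4.57 ± 1.16) completed the family. Of the kainate receptors and their partners, Grik5 (161 ± 12.3), Neto1 (113 ± 14.3) and Grik4 (69.8 ± 6.13) drew the most reads and Grik1 the fewest (10.5 ± 0.737). The metabotropic family ran from Grm3, which astrocytes make (120.2 ± 12.3), and the postsynaptic Grm5 (84.9 ± 21.9) to Grm6 (3.30 ± 0.651).

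**Figure D3:**
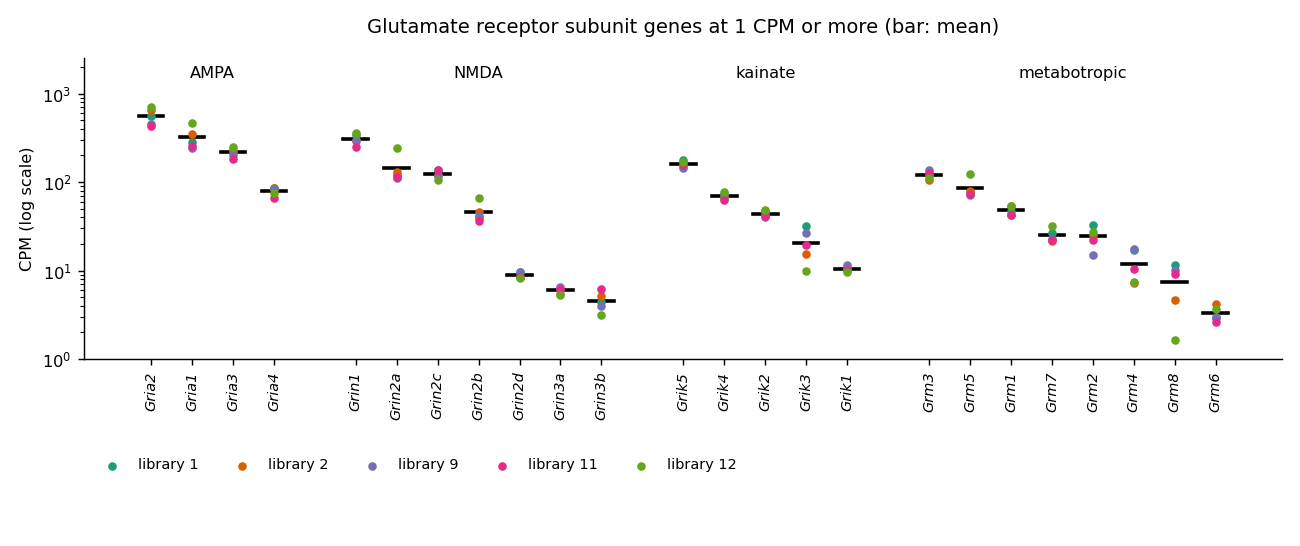
CPM of glutamate receptor subunit genes at 1 CPM or more in the 5 naive libraries (points, vertical log axis) with the mean as a bar. Gria2, Grin1, Grik5 and Grm3 stand highest in their families by reads, and the points of Grin2a include 1 library, library 12, well above the other 4.

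Downstream of these receptors lie the scaffolds of the postsynaptic density. All 16 reached 1 CPM, and 11 reached 100 CPM. None had a CV of 30%, which is near the 1.84% of all genes between 100 and 1000 CPM. Nrgn, which binds calmodulin in spines, stood at 1059 ± 122 CPM, Dlg4, the scaffold PSD-95, at 807 ± 35.2, Shank1 at 765 ± 131, and Homer2, the lowest, at 19.3 ± 2.11. CaMKII subunits were Camk2a and Camk2b (1221 ± 184), with Camk2g (96.6 ± 13.1) and Camk2d (49.1 ± 10.7) far behind by reads, and the inhibitor Camk2n1 stood at 310.0, 220.2, 281, 289 and 179.8 CPM. Calcineurin, the phosphatase that opposes CaMKII in long-term depression, was read through Ppp3ca (757 ± 199), Ppp3r1 (614 ± 99.1) and Ppp3cb (419.7 ± 56.1). The protein kinase A subunits ran from Prkar1a (276 ± 20.7) to Prkar2a (37.4 ± 3.04). Of the protein kinase C isoforms, Prkcb stood at 298 ± 20.7 and Prkcz at 231 ± 18.6. Adenylyl cyclases, which make cAMP, were led by Adcy1, a calmodulin-stimulated form, at 368 ± 38.9, and Adcy8, the other calmodulin-stimulated form, stood at 12.1 ± 0.648. The ERK and CREB pathway had a median CV of 9.39%, with Map2k1 (282 ± 34.4) highest, Mapk3 (177 ± 10.3) among the next and Creb1 (9.44 ± 1.31) lowest.

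Inhibition was read through 19 GABA-A subunits, of which 13 reached 1 CPM. Gabra5, whose receptors mediate tonic inhibition in the hippocampus, stood at 162, 197, 142, 139.9 and 209 CPM, with libraries 2 and 12 highest. Gabra4 averaged 141 ± 14.9 and Gabra2 116 ± 29.4. Gabrd, an extrasynaptic subunit of dentate granule cells, stood at 28.2 ± 10.5, and Gabra6, the cerebellar subunit, at 0.331 ± 0.366. The metabotropic GABA-B receptor genes Gabbr1 and Gabbr2 stood at 1261 ± 86.1 and 334 ± 46.4.

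Presynaptic genes held 1.26 ± 0.0840% of the counts. After Snap25 came Slc17a7, the vesicular glutamate transporter of hippocampal and cortical neurons (1751, 1691, 1497, 1491 and 1954 CPM), and Syt1, the calcium sensor of release (1248 ± 166). Slc17a8 was lowest at 6.75 ± 3.48. Slc17a6, the vesicular glutamate transporter of thalamus and subiculum, is on the subiculum list as well and stood at 21.6, 7.69, 36.1, 10.3 and 11.4 CPM, with library 9 at the highest value. Neuropeptide genes were led by the granins Chgb (458 ± 73.8) and Scg2 (171 ± 45.8) and by Cck, and Crh was lowest at 1.08 ± 0.482.

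Ion channels set excitability. Of all genes, 9.6% at 1 CPM or more and 2.27% between 20 and 100 CPM had a CV of 30%. Beside that, 3 of 27 potassium channel genes at 1 CPM or more did, in a list with a median of 59.5 CPM. Of these channels, Kcnab2 (433 ± 27.1) drew the most reads, Kcna2 was among the next (263 ± 38.0) and Kcnip2 drew the fewest (0.238 ± 0.141). Sodium channels were led by the beta subunit Scn3b (642 ± 192), the pore subunit Scn2a was among the next (285 ± 45.3), and Scn9a was lowest (4.00 ± 1.39). Scn4b stood at 152, 57.5, 118, 82.5 and 47.0 CPM, with library 1 highest. Calcium channels were led by Cacnb3 (198 ± 9.58), Cacna1a (197 ± 29.3) and Cacna2d3 (155 ± 41.7). Hcn2, an h-channel subunit, stood at 104 ± 13.9, and Pex5l, an auxiliary protein of h-channels, at 136 ± 12.3. Hcn4, the subunit that is strong in thalamus, stood at 4.05, 0.867, 9.71, 2.01 and 1.07 CPM, with library 9 above 9 and libraries 2 and 12 near 1, a CV of 104%. Atp1b1, the beta subunit of the sodium pump, stood at 1394 ± 235.

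Neuromodulator receptors were among the lower genes. Of 32 monoamine and acetylcholine receptors measured, 28 reached 1 CPM and the median was 6.30 CPM. The muscarinic receptors Chrm1 (90.9 ± 16.3) and Chrm3 (74.3 ± 10.8) and the serotonin receptor Htr2c (56.1 ± 18.1), which is also a choroid plexus gene, were highest, and Drd3 was lowest (0.123 ± 0.0961). Ntrk2, the receptor of BDNF, stood at 915 ± 101 CPM and Bdnf itself at 22.5, 26.9, 20.0, 20.2 and 33.1. Among nuclear receptors Thra (452 ± 29.3), the glucocorticoid receptor Nr3c1 (104 ± 3.44) and the mineralocorticoid receptor Nr3c2 (60.7, 75.5, 53.7, 63.0 and 135 CPM) were highest, Nr3c1 at a CV of 3.32% and Nr3c2, which was highest in library 12, at 42.8%. Esr2 was lowest at 0.739 ± 0.385.

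The study targets Rnf20, the ubiquitin ligase that, with its partner Rnf40, monoubiquitinates histone H2B. In the naive libraries, which received no siRNA against it, Rnf20 stood at 44.1, 39.8, 40.9, 39.0 and 43.6 CPM, a CV of 5.46% and rank 4813 by reads. Rnf40 stood at 42.4 ± 2.65, the E2 enzyme Ube2a at 54.6 ± 3.24, and the deubiquitinases Usp22 and Usp7 at 157 ± 22.4 and 137 ± 4.37. Of the PAF complex, which couples the mark to elongating polymerase, Rtf1 (88.6 ± 5.15), Ctr9 (70.6 ± 6.31), Paf1 (60.6 ± 3.40), Leo1 (29.1 ± 1.35) and Cdc73 (13.8 ± 0.844) were measured. None of the 13 members at 1 CPM or more had a CV of 30%, near the 2.27% of all genes between 20 and 100 CPM. Usp44, the 14th measured, lay at 0.0387 ± 0.0356. Of the genes of ubiquitin itself, Ubb stood at 849.6 ± 42.9 and Rps27a at 351 ± 46.0. The 30 proteasome subunits measured, all at 1 CPM or more, had a median of 95.5 CPM and ran from Psmd2 (184 ± 12.9) to Psma4 (61.8 ± 3.33).

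Energy and translation families took large shares. Cytosolic ribosomal proteins held 1.502 ± 0.179% of the counts, with Rpl4 (609.7 ± 59.3), Rplp0 (543 ± 75.9) and Rpl3 (531 ± 48.6) in front. Of 81 genes matching the family's names, 67 reached 1 CPM, and some at the bottom are genes that every cell uses: Rplp2, Rpl8 and Rpl30l1 were listed at 0 in all 5 libraries and Rpl7a at 0.0119 ± 0.0266; those named here besides the highest were chosen after their values were seen. Nuclear-encoded subunits of oxidative phosphorylation held 1.10 ± 0.0267%, led by the ATP synthase subunits Atp5f1b (1196 ± 69.5) and Atp5f1a (602 ± 48.1). Glycolysis held 0.670 ± 0.0486%, with Aldoa (1205 ± 121), Aldoc (915 ± 98.2) and Pkm (609.6 ± 92.3) in front, while Tpi1 (0.339 ± 0.178) and Eno2 (0.653 ± 0.182), likewise used by every cell or every neuron, lay near 0. Levels of such genes in this table are not read as expression, and the reason for them was not tested. Tubulins were led by Tubb4a (1286 ± 116), the actin list by Tmsb4x (1646 ± 192) and Actb (1273 ± 175), and the chaperones by Hsp90ab1 (1527 ± 217).

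The spread between libraries was small for most genes. The common biological coefficient of variation, edgeR's estimate of the spread beyond counting error, was 13.9%. The median CV of CPM was 11.6%, with quartiles of 7.58% and 18.8%. Among the 14038 genes with a mean of at least 1 CPM, 1347 had a CV of 30% or more, which is 9.6%, and this share is the background against which the lists below are read. It rests on low genes: 875 of 2502 genes between 1 and 5 CPM passed, where counting error alone has a median of 16.1%, but 127 of 5601 between 20 and 100 CPM (2.27%), 35 of 1907 between 100 and 1000 CPM (1.84%) and 1 of 83 at 1000 CPM or more, which was Ttr. In 11.98% of the genes the highest library was at least 2 times the lowest. Spearman correlations of log2 CPM across genes ran from 0.984 to 0.991 over the 10 pairs of libraries, a description across genes that are not independent replicates. A check for a library deposited under more than 1 label gave a chi-square per degree of freedom of 9.81 at the least over the pairs; it sets differences against counting error alone and treats PCR copies as independent molecules. Between 157 (libraries 2 and 11) and 414 (libraries 9 and 12) genes differed 2 times in a pair, and library 12 was lowest for 33.6% of the genes with a CV of 30% or more, beside 24.7% of all genes.

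**Figure D4:**
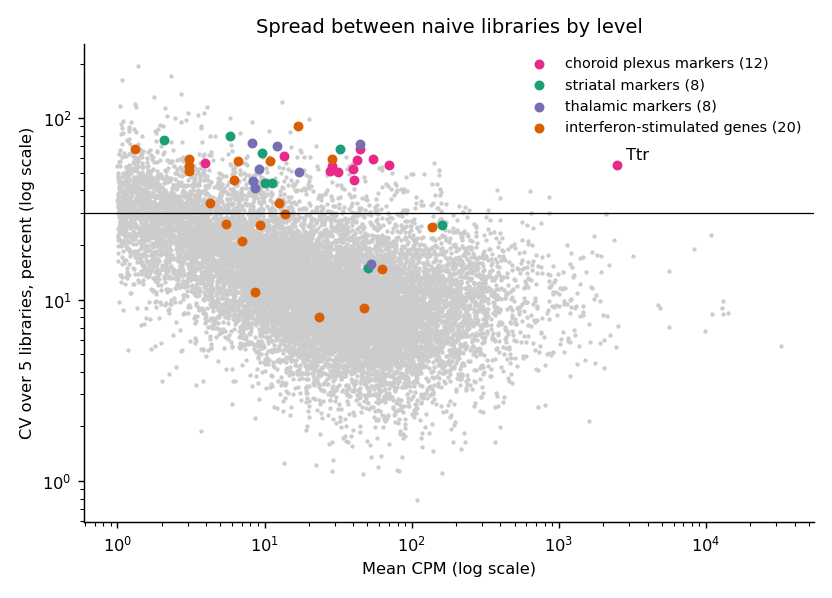
CV of CPM over the 5 naive libraries (vertical log axis, percent) against mean CPM (horizontal log axis) for genes at 1 CPM or more, with choroid plexus, striatal, thalamic and interferon-stimulated list members coloured and the 30% line drawn. The median CV falls from 25.1% between 1 and 5 CPM to 8.83% between 20 and 100 CPM. It is 9.28% at 1000 CPM or more. The 12 choroid plexus genes, Ttr rightmost, all lie above the line.

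Of the 64 lists, 24 had no member of 1 CPM or more past 30%, among them the pan-neuronal (11 members), astrocyte (14), oligodendrocyte (15), endothelial (8), postsynaptic scaffold (16), ERK and CREB (19), H2B ubiquitination (13), proteasome (30), glycolysis (13) and clock (16) lists and the 67 ribosomal proteins. Since few genes of any kind passed at 20 CPM or more, a count of 0 at that level is near the background. Against 9.6% of all genes, the highest shares were those of choroid plexus genes, 12 of 12, thalamic, 7 of 8, ventral CA1, 6 of 7, striatal, 6 of 8, CA2 and leukocyte, 4 of 6 each, subiculum, 3 of 5, and interferon-stimulated genes, 11 of 20. Monoamine and acetylcholine receptors followed with 14 of 28, meningeal genes with 4 of 8, reactive glia with 12 of 26 and CA1 pyramidal markers with 4 of 9. Nuclear receptors and neurotrophin genes had 3 of 7 each, neuropeptides 7 of 17, immediate early genes 9 of 24, the neocortical and dentate granule lists 3 of 8 each, microglia 5 of 14 and sodium channels 3 of 9. The other 20 lists with any such member lay at 25% or less. Lists of low genes pass more easily, since 34.97% of all genes between 1 and 5 CPM and 7.83% between 5 and 20 CPM did. The lists were chosen with earlier results of these data known, so their order is a description. Some genes past 30% count for more than 1 list, so the shares are not independent. Among them are Calb2 (thalamic, ventral CA1, interneuron), Dcn (ventral CA1, meningeal) and Sostdc1 (CA2, choroid plexus). Further ones are Htr2c (ventral CA1, monoamine receptors) and Slc17a6 (subiculum, presynaptic). The library that was highest for most members was not the same for every list.

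Choroid plexus genes set libraries 9 and 12 apart. Ttr, which carries thyroid hormone into the cerebrospinal fluid, stood at 1548, 1273, 3836, 1619 and 4022 CPM. Kl, the klotho gene, stood at 32.8, 26.5, 80.6, 33.8 and 97.4 CPM. The water channel Aqp1 stood at 18.5, 14.7, 42.5, 19.1 and 48.5 CPM. In each of these genes libraries 9 and 12 were above the other 3, which lay close together. The same held for the potassium channel Kcnj13 at 8.03, 6.59, 23.3, 7.77 and 22.2 CPM. Clic6 stood at 47.6, 40.1, 112, 38.8 and 113 CPM and the folate receptor Folr1 at 19.7, 16.0, 37.9, 18.1 and 48.0 CPM. Library 12 was highest for 11 of the 12 members and library 2 lowest for 10. The score of the list, the mean of log2(CPM + 0.5) over its members, spanned 3.14 times from the lowest to the highest library. Sostdc1, which stands on the CA2 list too, was likewise highest in libraries 12 and 9 at 21.7, 17.7, 46.9, 20.1 and 50.3 CPM.

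Striatal genes were highest in library 1 for 8 of 8 members and lowest in library 12 for 7. Drd2, the dopamine receptor of indirect-pathway cells, stood at 13.3, 2.20, 5.48, 6.39 and 1.71 CPM. Adora2a, the adenosine receptor of the same cells, stood at 20.0, 5.38, 8.76, 9.40 and 4.57 CPM. Drd1, the dopamine receptor of direct-pathway cells, stood at 16.5, 7.46, 12.2, 9.52 and 5.00 CPM. All 3 receptors were highest in library 1. Ppp1r1b, which encodes DARPP-32, stood at 224, 124, 168, 160.0 and 123 CPM. The score spanned 3.35 times, and without library 1 it spanned 1.99 times. Of the opioid peptide genes that striatal cells make, Penk stood at 73.1, 20.9, 39.3, 42.9 and 19.9 CPM, with library 1 highest. Pdyn, which dentate granule cells make as well, stood at 57.2, 56.1, 32.9, 38.5 and 17.8 CPM, with libraries 1 and 2 about level and library 12 lowest.

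Thalamic genes were highest in library 9 for 8 of 8. Prkcd, a protein kinase C isoform of thalamic relay cells, stood at 59.0, 21.2, 94.4, 31.8 and 17.6 CPM. Tcf7l2, a transcription factor of the thalamus, stood at 17.0, 12.95, 31.1, 17.5 and 7.56 CPM. Zic1, another transcription factor, stood at 10.5, 6.36, 27.1, 9.59 and 7.28 CPM. In Zic1 the other 4 libraries lay below 11 CPM, while in Prkcd library 1 came between. Synpo2 stood at 8.56, 5.38, 18.2, 5.70 and 3.07 CPM. The score spanned 3.07 times, and 1.76 times without library 9, when 4 members instead of 7 were past 30%. Slc17a6 and Hcn4, given above, were highest in library 9 too, and CA1 pyramidal markers were mostly lowest there. Whether the dissected blocks held different amounts of neighbouring tissue was not tested.

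**Figure D5:**
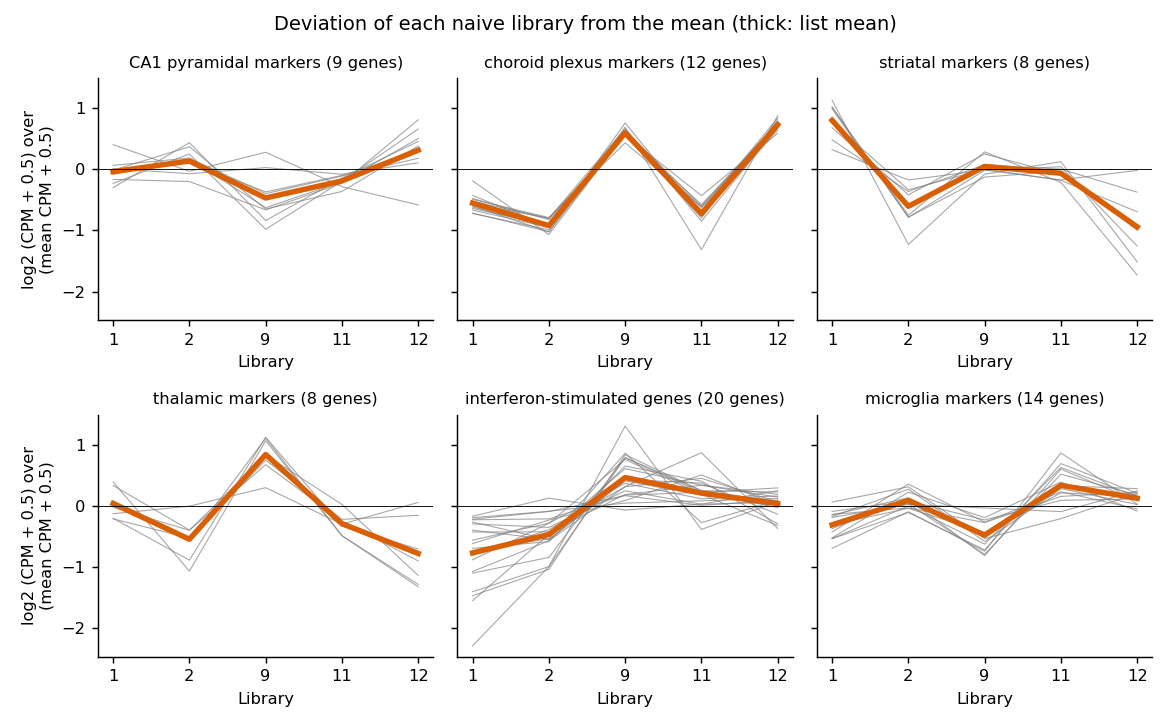
Log2 of each gene's CPM over its mean (log2 ratio, prior 0.5 CPM, vertical axis) in each naive library (horizontal axis) for the members of 6 lists that reached 1 CPM, 1 panel each, with the list mean as a thick line. Choroid plexus genes lie above their mean in libraries 9 and 12, striatal genes in library 1 and thalamic genes in library 9, and interferon-stimulated genes stand lowest in library 1, while CA1 genes are low in library 9 and high in library 12.

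Microglia markers and reactive glia genes were highest in library 11 more often than in any other. Microglia markers were highest in library 11 for 9 of 14 and lowest in library 9 for 11. The complement gene C1qa stood at 107, 143, 93.7, 250.2 and 179 CPM. Its partners C1qb and C1qc, which form the same C1q protein, averaged 107 ± 39.3 and 73.2 ± 36.7 CPM and were highest in library 11 as well. Itgam, an integrin subunit of microglia, was even at 31.5, 36.5, 35.1, 33.7 and 42.7 CPM. P2ry12, a purine receptor of resting microglia, stood at 24.0, 29.9, 16.6, 42.0 and 33.0 CPM, and Siglech was near 0. Without library 11 none of the members had a CV of 30%, and without library 9 the count was 3 instead of 5. Reactive glia genes were highest in library 11 for 13 of 26, and in libraries 1, 2, 9 and 12 for 2, 5, 4 and 2. Of them, Gfap stood at 3042, 2929, 2750.4, 4161 and 3088 CPM. Vim, an intermediate filament that reactive astrocytes make, stood at 199, 235, 156, 331 and 187 CPM. C3, a complement gene chosen after its values were seen, stood at 94.9, 115, 105, 273 and 180.2 CPM. These 3 are among the 13 that were highest in library 11. The ribosomal proteins, none of which passed 30%, were highest in library 11 for 62 of 67, and without library 11 a single member passed.

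Interferon-stimulated genes, which cells switch on through transcription factors that include Stat2 and Irf9 when they sense interferon, were lowest in library 1 for 17 of 20 and highest in library 9 for 12. The promoters of 3 of them are shown, because this response is known to act through an element that the factors bind. Each sequence is 250 bases before the gene's start, from RefSeq on assembly GRCr8, in lower case, with matches on either strand to the interferon-stimulated response element in capitals. The element was searched as GAAA, any 2 bases and GAAA again.
Irf7 (chr1:205800024-205800273, minus strand): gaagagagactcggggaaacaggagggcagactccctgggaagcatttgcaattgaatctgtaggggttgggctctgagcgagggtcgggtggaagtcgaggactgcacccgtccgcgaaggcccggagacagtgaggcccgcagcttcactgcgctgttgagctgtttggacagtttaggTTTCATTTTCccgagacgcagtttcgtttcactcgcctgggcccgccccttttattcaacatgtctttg
Ifit3 (chr1:241527076-241527325, plus strand): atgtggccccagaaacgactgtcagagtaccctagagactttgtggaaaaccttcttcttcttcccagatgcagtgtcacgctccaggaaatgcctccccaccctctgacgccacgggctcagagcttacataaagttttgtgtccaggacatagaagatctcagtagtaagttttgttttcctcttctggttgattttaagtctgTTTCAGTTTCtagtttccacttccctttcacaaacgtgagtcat
Oas1a (chr12:41330216-41330465, plus strand): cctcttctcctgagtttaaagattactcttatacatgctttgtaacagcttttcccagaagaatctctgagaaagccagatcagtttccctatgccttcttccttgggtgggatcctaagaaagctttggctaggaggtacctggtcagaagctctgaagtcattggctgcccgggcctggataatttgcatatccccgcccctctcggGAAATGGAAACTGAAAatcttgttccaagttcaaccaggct
The Oas1a capitals hold 2 overlapping matches. The nearest matches lie 69, 44 and 35 bases before the starts of Irf7, Ifit3 and Oas1a. Of 21 genes of the list, 14 had a promoter in the table and 8 of those held the motif, and 3.41% of all 33469 promoters of the same length did; a match is a description of the letters, not a site.

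Of the genes named in this group, Irf7, Ifit3, Oas1a, Mx2 and Irf9 were chosen after their values were seen. Irf7, the factor that amplifies interferon production, stood at 3.79, 5.20, 19.1, 12.7 and 13.4 CPM. Ifit3, an antiviral effector, stood at 1.18, 1.503, 5.72, 3.76 and 3.28 CPM. Oas1a, which senses viral RNA, stood at 0.718, 2.08, 4.94, 4.01 and 3.57 CPM. In all 3, library 1 was lowest and library 9 highest. The antiviral GTPase Mx1 stood at 3.07, 8.27, 42.6, 12.8 and 17.8 CPM and its relative Mx2 at 9.99, 13.6, 51.4, 34.0 and 33.5 CPM, with the same lowest and highest libraries. Stat2 and Irf9, which carry the interferon signal, were more even and averaged 47.4 ± 4.25 and 23.2 ± 1.87 CPM. Ifi27 drew the most reads of the list, 114, 93.4, 182, 155 and 140.0 CPM, and Ifit1 the fewest, 0.0244 ± 0.0335 CPM. The list's score spanned 2.27 times.

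Immediate early genes, which neurons switch on within minutes of activity, were highest in library 9 for 9 of 24 and in library 12 for 7. Library 12 was also lowest for 12 and library 11 for 8. Over all genes library 9 was highest for 16.2% and library 12 lowest for 24.7%. Arc, which acts at synapses to remove AMPA receptors, stood at 109.9, 94.9, 181, 81.8 and 43.9 CPM. The transcription factor Egr1 stood at 83.1, 100.4, 139, 78.8 and 63.9 CPM. Fos, chosen after its values were seen, stood at 13.1, 7.86, 15.4, 6.58 and 3.43 CPM. These 3 were highest in library 9 and lowest in library 12, while Bdnf, given above, was highest in library 12. Jund, a partner of Fos that is made constitutively, was more even at 78.7, 67.0, 72.7, 63.0 and 58.6 CPM. Egr2 drew the fewest reads of the list, 1.86 ± 1.20 CPM. Dusp1, a phosphatase of MAP kinases chosen after its values were seen, stood at 19.5, 13.01, 36.7, 12.3 and 6.92 CPM, and its CV of 65.1% was the largest of the list. Its promoter, again 250 bases before the start, is shown for its cAMP response element, TGACGTCA, in capitals, which CREB binds.
Dusp1 (chr10:17184603-17184852, plus strand): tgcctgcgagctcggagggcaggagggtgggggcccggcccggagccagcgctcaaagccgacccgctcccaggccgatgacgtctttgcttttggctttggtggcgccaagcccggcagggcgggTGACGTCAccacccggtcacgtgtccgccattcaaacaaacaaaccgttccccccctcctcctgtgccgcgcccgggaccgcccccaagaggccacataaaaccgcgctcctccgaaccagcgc
The match lies 124 bases before the start. Of 19 list members with a promoter in the table, 4 held the element on either strand, which reads the same on both, and 1.59% of all 33469 promoters did.

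Genes under stress hormone and clock control were read as well. Of the glucocorticoid-responsive genes, Klf9, Sgk1 and Ddit4 averaged 103 ± 8.39, 76.5 ± 14.4 and 60.1 ± 3.50 CPM, and Mt1 drew the fewest reads at 2.13 ± 0.832 CPM. Of the clock genes, Tef, Cry2 and Clock averaged 329 ± 26.6, 131 ± 2.40 and 90.1 ± 4.50 CPM. Ciart, a repressor in the clock, drew the fewest reads at 4.65 ± 1.03 CPM. None of the 16 clock genes had a CV of 30%. The list's median was 43.1 CPM, and 2.27% of all genes between 20 and 100 CPM had such a CV. The count is therefore near the background.

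The 15 genes with the largest CV, among those of 5 CPM or more, were led by Slfn4, an interferon-responsive gene, at 2.29, 7.46, 41.3, 9.90 and 4.21 CPM. Library 9 was highest for it, as for Mx1, the fifth of them. Of the next, 2 carry only a clone name: AC111804.2 stood at 13.8, 10.1, 2.74, 1.07 and 1.36 CPM and AABR07052897.3 at 22.1, 5.32, 5.90, 4.26 and 3.64 CPM, both highest in library 1. LOC100362027 stood at 4.38, 36.9, 6.55, 45.6 and 5.99 CPM, with libraries 2 and 11 apart from the rest. Plac8 stood at 2.29, 5.15, 13.5, 25.3 and 7.42 CPM and Aurkb, a kinase of dividing cells, at 8.43, 12.4, 6.14, 37.0 and 10.6 CPM, both highest in library 11. Tshz2, a transcription factor, was highest in library 11 too, at 20.7, 10.6, 17.2, 49.5 and 13.8 CPM. Adra1b, an adrenergic receptor, stood at 14.1, 1.97, 11.4, 4.57 and 1.86 CPM and Cpne9 at 22.8, 8.21, 29.1, 10.2 and 4.71 CPM, with libraries 1 and 9 above the others in both. RT1-T24-3, a histocompatibility gene whose reads may be shared with its relatives, stood at 5.16, 3.76, 13.1, 4.95 and 2.35 CPM. The remaining 4, Drd2, Synpo2, Prkcd and Zic1, are members of the striatal and thalamic lists.

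At the other end, among genes of 20 CPM or more, Desi1 had the smallest CV, 0.782%, at 108, 109, 107, 108 and 109 CPM. Counting error alone is 2.41% for Desi1, 3.68% for Pef1 and 2.71% for Bace1, above the CVs of these genes. The genes here were picked for small CVs, so a CV below counting error is not read as steady expression. The other 9 of the 10 smallest CVs lay between 1.09% (Pef1) and 1.36% (Bace1, the beta-secretase). Among them were Trak1, an adaptor of mitochondrial transport (159 ± 1.76 CPM), and Csnk2b, the regulatory subunit of casein kinase 2 (81.4 ± 0.929 CPM). Eif2b4, a subunit of a translation initiation factor (29.2 ± 0.381 CPM), Msl2 (28.6 ± 0.326 CPM), Tm7sf3 (58.8 ± 0.703 CPM) and Ptpdc1 (22.5 ± 0.276 CPM) were among them too.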

How the data were processed

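The authors deposited a table of raw read counts for 22314 genes in 15 libraries. Per the submitters' processing notes, reads were trimmed with Trim Galore, checked with FastQC and counted with featureCounts 2.0.1 on Rnor_6.0, and DESeq2 was used. The aligner, annotation release and strand setting were not given in the sources used here, so overlapping, antisense and near-identical genes are uncertain. All 15 count columns matched a labelled sample (0 did not), and only the 5 naive ones were used, apart from 1 alternative scaling, at 14249375 to 17046535 counts each.

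From these counts CPM (counts per 1000000) was computed on totals scaled by TMM (edgeR 4.0.16, R 4.3.3), with SD and CV over the 5 libraries, and edgeR's common dispersion as the biological coefficient of variation. The estimator was tested on simulated counts in which most genes had the same spread beyond counting error. In the data that spread differed between genes, so the test does not measure the estimator's error here. No contrast was tested. A gene was called variable at a CV of 30% or more and a mean of 1 CPM or more.

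The members and the gene lists were chosen with earlier results of these data known. The rule for named genes took the 20 highest genes of the nucleus, every mitochondrial protein gene, the 3 highest members and the lowest of each list, all members of lists of 20 or fewer where a family is described, the 15 largest CVs (mean of 5 CPM or more), the 10 smallest (20 CPM or more), Rnf20, and the sex-linked, ubiquitin and calmodulin genes. Any other gene is named as picked with its values known, and some genes that the rule takes are not reported here. Planned levels per coding length were not computed, since no table of lengths was used here. Promoters came from RefSeq (GRCr8). Alternatives were other scalings, thresholds and filters and leaving out each library.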

Additional observations from a re-analysis of the deposited data

Results flagged for a closer look

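In 24 of the 270 genes with values in the text, 1 library stood apart from the other 4 by more than 0.71 of the group's whole range, Dixon's limit for 5 samples, which chance passes in about 1 of 20 groups. None of the 64 list scores, the total counts or the mitochondrial share did. Some of the genes were named for a large or small CV or after their values were seen. The rate of 1 in 20 therefore does not apply to the 24, and the rate over all genes was not computed. Over the 14038 genes at 1 CPM or more, library 12 was highest for 28.9% and lowest for 24.7%. Library 12 was the one apart in 11 of the 24 genes, library 9 in 7, library 11 in 3, library 2 in 2 and library 1 in 1.

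In library 12 the genes apart were of several kinds. Its Grin2a was 240.7 CPM against at most 132 in the others, its Grm5 124 CPM against at most 79.1, its Cacna2d3 229 CPM against at most 145, and its Cacna1a 247 CPM against at most 189.6. Its Nr3c2 was 135 CPM, its Slc17a8 12.8 CPM, its Ccn3 259.7 CPM, its Psap 2412 CPM, its Bsg 655 CPM and its Ctr9 81.7 CPM, each the highest, while its Cacng7 was the lowest at 113 CPM.

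Library 9 was highest for Zic1 (27.1 CPM), Calb2 (14.7 CPM), Slfn4 (41.3 CPM), RT1-T24-3 (13.1 CPM) and Tf (1571 CPM), and lowest for Bace1 (83.6 CPM). Library 11 was highest for Gfap (4161 CPM), Aurkb (37.0 CPM) and Tshz2 (49.5 CPM), and library 1 for AABR07052897.3 (22.1 CPM). Rpl7a in library 9 (0.0596 CPM) and Tdo2 and Ms4a1 in library 2 (0.0578 CPM each) are single counts in genes at 0 elsewhere. No test bears on why these libraries stood apart.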

How the results depend on the processing

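Across 550 results and 4806 alternative values, 4562 stayed within the spread of the libraries or, for counts, within 1.5 times. Of the 244 others, 181 came from leaving the 13 mitochondrially encoded protein genes out of the total, which raises every other share. The common biological coefficient of variation (13.9%) lay between 12.2% and 14.8% with 1 library left out, and was lowest without library 12. Genes with a CV of 30% or more (1347) numbered 7312 with no filter on low counts and 472 at a mean of 5 CPM or more. The CA1 list median (79.1 CPM) was 112 CPM over members of 1 CPM or more. With 1 library left out, variable members numbered 0 to 5 for microglia, 4 to 7 for thalamic genes and 0 to 1 for ribosomal proteins, of which 1 also passed with mitochondrial genes left out. The causes were not tested. Levels per coding length were not run. No paired analysis was possible because there was a single group. Genes under 5 CPM carry counting error of the size of the spread measured here, and 5 libraries limit every SD.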

Other observations

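Genes of leukocytes, given above as a list and through Lyz2, held a pair of unusual members. Cd4, the co-receptor of helper T cells, which rat microglia and macrophages can make, stood at 12.3, 11.4, 13.9, 40.7 and 22.9 CPM. Cd3e, a chain of the T cell receptor complex, stood at 5.94, 13.9, 3.40, 10.2 and 19.8 CPM. Ptprc, the common leukocyte antigen, stood at 10.2, 16.0, 11.9, 18.7 and 17.0 CPM and Lyz2, lysozyme, at 60.3, 95.8, 64.6, 75.3 and 97.2 CPM. Cd3g, another chain of the T cell receptor complex, lay under 1 CPM on average, as did Cd8a, Ms4a1, S100a8 and S100a9. Lyz2, Cd4 and Ptprc, the highest of the list, and Ms4a1, the lowest, fall under the rule for named genes. The other members were chosen after their values were seen.

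Of the meningeal list, Ptgds, prostaglandin D synthase, averaged 339 ± 64.6 CPM, and Igf2, which meninges and choroid plexus make, stood at 119, 100.1, 211, 121 and 228 CPM, with libraries 9 and 12 highest. Of the symbols in the count table, 15868 matched RefSeq protein-coding genes and held 84.6% of the counts, and 6126 matched none and held 15.3%. The 189 microRNA genes held 0.00394% of the counts, in libraries made from polyadenylated RNA.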
